A study of Mus musculus with 4 samples.

Results

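The insulin-like growth factor (IGF) genes described here are 10 of the 31017 gene symbols counted in mouse testis: the ligands Igf1 and Igf2, the receptors Igf1r and Igf2r, and the binding proteins Igfbp2 to Igfbp7. They were taken by symbol from the feature lists, and all 10 were found. The set was chosen with earlier results of these data known. IGF1 and IGF2 are secreted growth factors that signal through the IGF1 receptor, a tyrosine kinase, while the IGF2 receptor takes up IGF2 for degradation. Secreted binding proteins hold the ligands outside the cell, prolong their life and limit their access to the receptor, and proteases such as PAPP-A release them. In the testis, IGF signalling is known to support the proliferation of Sertoli cells and the growth and steroid output of Leydig cells.

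The study set testis fragments kept in organ culture against testes that were never cultured, with 1 single-cell RNA sequencing library for each of 4 groups. The 2-day and the 7-day library came from testes taken at 7 days postpartum (dpp) and then cultured for that many days, and the 9 dpp and the 14 dpp library came from uncultured testes of those ages. Age at collection plus days of culture equals the age of the uncultured testes in the early pair (the 2-day library against the 9 dpp library) and in the late pair (the 7-day library against the 14 dpp library). All 4 groups shared a C57BL/6 background and the Acr-Gfp transgene, in which the Acr promoter, active in germ cells from meiosis onward, drives green fluorescent protein. Cultured fragments lay on agarose in α-MEM with AlbuMAX, a lipid-rich serum albumin, under a silicone (PDMS) ceiling chip. The labels of the uncultured samples repeat this culture text, and the library text speaks of female gonads, so the groups were taken from the sample titles. Whether testes of several animals were pooled is not given in the sources used here.

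After filtering, the 2-day, 7-day, 9 dpp and 14 dpp libraries held 6877, 4816, 5150 and 6195 cells, with 32078508, 37117012, 57585867 and 56210929 unique molecular identifiers (UMIs, each a tag for 1 captured transcript). Any 2 libraries shared 35 to 86 barcodes. Cells were assigned by UMIs of marker lists, and a name ending in -like means that and no more. Each list was detected in full in the type it defines, except 1 of 8 Leydig markers in the 9 dpp library. In the library order above, stromal- or myoid-like cells numbered 2430, 1493, 1499 and 1094, Sertoli-like cells 1217, 540, 883 and 967, germ-like cells 2862, 2564, 2529 and 3715, and Leydig-like cells 79, 60, 83 and 111. Rare types were pericyte-like cells, 39 to 43 per library, endothelial-like cells (58, 24, 21 and 38) and macrophage-like cells (10, 19, 29 and 47), and 66 to 182 cells per library had no type. Stromal-like and myoid-like cells were treated as 1 class because many cells lay near the line between them: 308 stromal-like and 292 myoid-like cells of the 2-day library scored within 2-fold of it. The median depth of Sertoli-like cells ranged from 3227 UMIs in the 2-day library to 14000 in the 9 dpp library.

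Levels are given as CPM, the UMIs of a gene per 1000000 UMIs of the same cells. A value in parentheses after a level or a ratio is its exact 95% interval, which covers counting error only. Each group being a single library, no replicate error and no test between groups can be given, and culture cannot be told apart from the library that carries it. A gene was called past 2-fold when the log2 ratio of CPM plus 1 was at least 1 in size, among genes with at least 50 UMIs summed over the 4 libraries in the cells of that type, so a single pair can rest on fewer.

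Over whole libraries of the early pair, 4 of the 10 genes were past 2-fold higher in culture (Igfbp3, Igfbp4, Igfbp5 and Igfbp7) and 1 was lower (Igfbp2), where 4.19% of all 16616 genes were higher and 3.41% were lower. In the late pair 3 were higher (Igfbp3, Igfbp5 and Igfbp7) and 0 were lower, against 3.6% and 2.67% of all genes. The median log2 ratio of the 10 genes was 0.62 in the early and 0.43 in the late pair, beside -0.12 and 0.00 over all genes. Between the uncultured libraries 0 of the 10 were past 2-fold higher at 14 than at 9 dpp and 1, Igfbp5, was lower, against 4.09% and 1.97% of all genes. Between the cultures 0 were higher in the 7-day than in the 2-day library and 3 were lower (Igfbp4, Igfbp5 and Igfbp7), against 4.52% and 2.37%. These 4 comparisons reuse the same 4 libraries. Igfbp2 in the early pair, with a log2 ratio of -1.07, came to -0.91 when the libraries were scaled with TMM factors, and Igfbp5 in the late pair, 1.27, came to 0.89 when each cell had equal weight. With 10 in place of 1 added to CPM, which weighs down low levels, Igfbp2 came to -0.97, Igfbp5 in the late pair to 0.44 and Igfbp5 between 14 and 9 dpp from -1.48 to -0.55. Igfbp7 between the cultures, -1.09, came to -0.65 with equal weight per cell. Over a whole library, more cells of a type and more RNA per cell cannot be told apart, so the genes are described by cell type below.

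**Figure D1:**
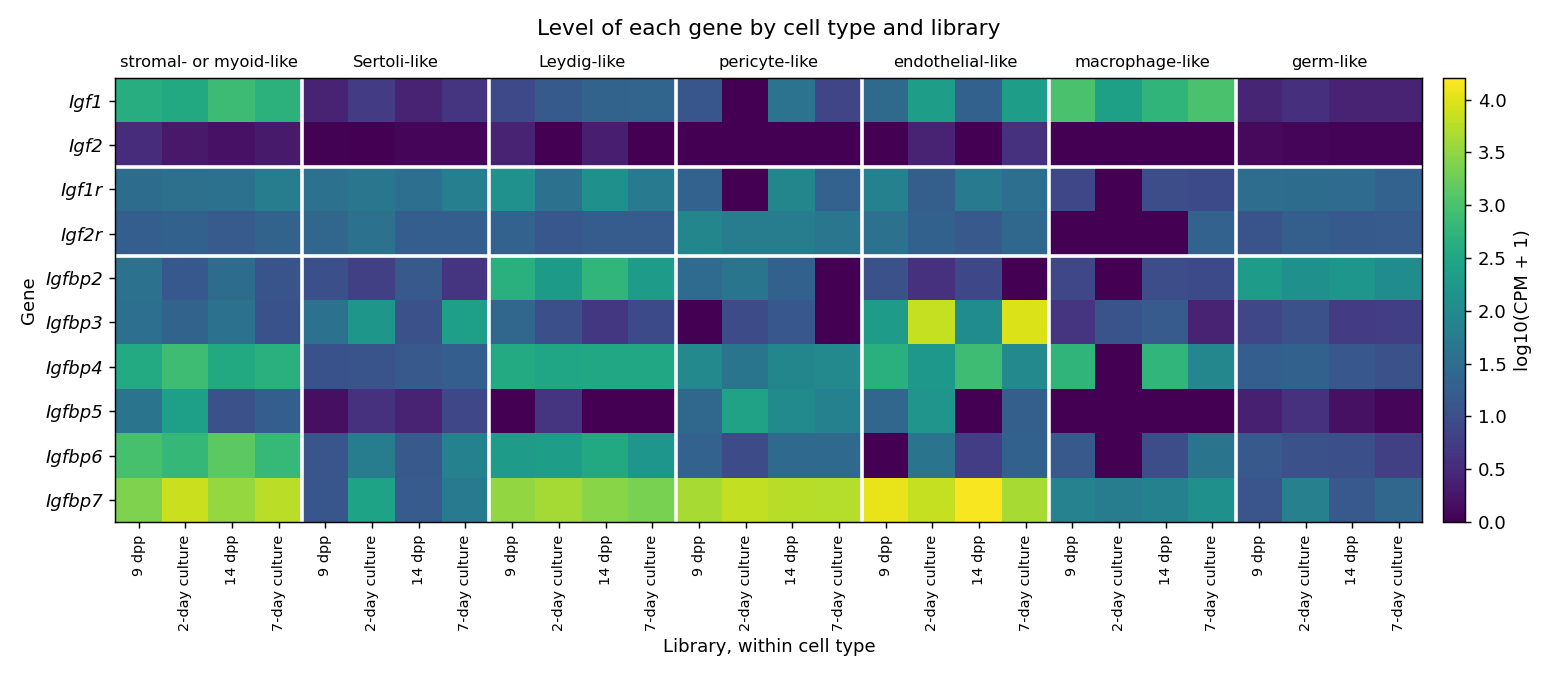
Level of each of the 10 genes (rows, in the order ligands, receptors and binding proteins) in each cell type and library (columns), coloured by log10 of CPM plus 1. Igfbp3 is bright in endothelial-like cells of both cultures (6693 and 9646 CPM) and darker in those of 9 and 14 dpp (211 and 110 CPM), while Igf1 is bright in stromal- or myoid-like and macrophage-like cells.

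Igfbp3, Igfbp5 and Igfbp7 were past 2-fold higher in culture in both pairs, and their promoters are shown because they were the 3 members called in both pairs. Each line gives the 250 bases before the RefSeq start site on GRCm38.p6, 5′ to 3′ on the strand of the gene, which is the minus strand in each case. Capitals mark matches, on either strand and possibly overlapping, to the TATA box (TATAAA), to an Sp1 type box (GGGCGG), to the AP-1 site (TGACTCA), to the core of the hypoxia response element (ACGTG) or to the kappaB consensus. The windows are chr11:7213924-7214173 for Igfbp3, chr1:72874866-72875115 for Igfbp5 and chr5:77408046-77408295 for Igfbp7.
Igfbp3: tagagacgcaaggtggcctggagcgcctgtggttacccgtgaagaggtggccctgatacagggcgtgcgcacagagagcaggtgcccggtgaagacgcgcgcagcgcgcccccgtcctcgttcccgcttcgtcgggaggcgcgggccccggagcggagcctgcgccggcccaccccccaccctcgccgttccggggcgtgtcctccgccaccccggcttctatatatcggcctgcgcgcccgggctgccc
Igfbp5: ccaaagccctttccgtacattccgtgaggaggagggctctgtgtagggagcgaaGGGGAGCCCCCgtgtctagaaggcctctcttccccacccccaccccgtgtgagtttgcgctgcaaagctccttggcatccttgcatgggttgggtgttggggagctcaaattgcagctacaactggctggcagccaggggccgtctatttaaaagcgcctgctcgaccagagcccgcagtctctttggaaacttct
Igfbp7: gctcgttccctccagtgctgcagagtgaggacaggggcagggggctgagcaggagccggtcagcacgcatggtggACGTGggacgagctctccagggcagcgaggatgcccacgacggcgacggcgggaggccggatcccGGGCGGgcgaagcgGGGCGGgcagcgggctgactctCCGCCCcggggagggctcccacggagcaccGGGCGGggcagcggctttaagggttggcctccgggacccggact
In these windows Igfbp3 held 0 matches. Igfbp5 held 2 overlapping kappaB matches, and a kappaB match was found in 7.25% of all 32817 promoter windows of this length. Igfbp7 held 4 matches to the Sp1 type box and 1 to the hypoxia core, which were found in 32.7% and 16.6% of all windows. The TATA box was found in 12.4% and the AP-1 site in 4.46% of all windows. No motif of the 5 was common to the 3 promoters, and a match is a run of letters, not a measured binding site.

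Igf1, the main circulating ligand of the IGF1 receptor (ENSMUSG00000020053, chromosome 10, 87858265 to 87937042, plus strand of GRCm38, as for the positions that follow), was counted mainly in stromal- or myoid-like cells, which held 78.8% to 92% of its UMIs. Its level there was 352 (341 to 363) CPM in the 2-day library against 410 (397 to 423) in the 9 dpp library, and 501 (485 to 518) in the 7-day library against 766 (742 to 791) in the 14 dpp library. It was lower in culture in both pairs, by 1.16-fold (1.11 to 1.22) and 1.53-fold (1.46 to 1.6), short of the 2-fold line. It was higher in the older library of each kind, by 1.87-fold (1.79 to 1.96) in uncultured and 1.42-fold (1.36 to 1.49) in cultured testis. Over whole libraries the order within the pairs was the reverse, 126 against 73.9 CPM and 118 against 73.5 CPM, and stromal- or myoid-like cells made up 35.3% against 29.1% and 31% against 17.7% of cells. With each cell thinned to 2000 UMIs, an Igf1 UMI was seen in 37.8% against 50.8% of these cells in the early pair and 50.8% against 68.9% in the late pair, and in at most 0.561% of germ-like cells. Without thinning the shares were 50.9% against 76.1% and 68.3% against 84%.

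Macrophage-like cells, the resident immune cells of the interstitium, were few. They had 241 (149 to 368) CPM of Igf1 in the 2-day library, from 10 cells, and 991 (879 to 1112) in the 9 dpp library. The late pair had 992 (917 to 1071) in culture and 565 (487 to 652) at 14 dpp. The 10 macrophage markers summed to 8963 against 35339 CPM in the early pair and 16375 against 29587 CPM in the late pair in these cells, lower in culture in both, and their part in the macrophage-like results was not tested. Beside stromal- or myoid-like cells of the same library, macrophage-like cells were higher in the 7-day and 9 dpp libraries, lower at 14 dpp, and not separable in the 2-day library, where the intervals overlap. In the 7-day library 19 macrophage-like cells held 14.8% of all Igf1 UMIs, 141 of them in 1 cell.

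In endothelial-like cells Igf1 was 220 (186 to 258) CPM in the 2-day against 27.2 (11.7 to 53.5) in the 9 dpp library, and 225 (191 to 265) in the 7-day against 18.8 (8.12 to 37.1) in the 14 dpp library. Both cultures stood above both uncultured libraries, by 8.08-fold (4 to 19.1) and 12-fold (5.93 to 28.3). The summed level of the 8 stromal markers in these cells was 562 against 57.7 CPM in the early pair (7 and 5 markers detected) and 359 against 37.6 CPM in the late pair (8 and 3 detected), and its part in the Igf1 difference was not tested. Sertoli-like and germ-like cells had at most 4.31 and 2.81 CPM of Igf1.

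Igf2, the ligand of fetal growth (ENSMUSG00000048583, chromosome 7, 142650766 to 142666816, minus strand), had only 13, 12, 33 and 10 UMIs in the 2-day, 7-day, 9 dpp and 14 dpp libraries. These counts cannot be read as its expression. In the GENCODE M21 annotation of GRCm38 another gene on the same strand, Gm49394, covers 62.8% of the Igf2 exon bases and 99.7% of the last 1000 of them, at the 3′ end where these libraries tag transcripts. Gm49394 itself had 0, 1, 0 and 2 UMIs. How reads that fall in both genes were counted is not given in the sources used here, and their part in the low count was not tested. H19, the imprinted neighbour of Igf2, had 133, 74.8, 125 and 15 CPM in the same libraries.

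Igf1r, the signalling receptor (ENSMUSG00000005533, chromosome 7, 67952827 to 68233668, plus strand), had nearly the same level in every whole library: 34.2 (32.2 to 36.3), 36.7 (34.8 to 38.7), 35.1 (33.5 to 36.6) and 34.2 (32.7 to 35.8) CPM in the 2-day, 7-day, 9 dpp and 14 dpp libraries. All 4 intervals overlap. Within cell types the levels moved apart. In Leydig-like cells, the steroid-producing cells, Igf1r was 35.5 (22.2 to 53.7) against 132 (112 to 154) CPM in the early pair and 52.3 (36 to 73.4) against 129 (112 to 148) in the late pair. It was lower in culture by 3.72-fold (2.38 to 6.11) and 2.47-fold (1.71 to 3.69), and an Igf1r UMI was seen in 2.67% against 23.5% and 6.78% against 22.5% of these cells at 2000 UMIs per cell. The 8 Leydig markers summed to 9474 against 17633 CPM and 10918 against 12719 CPM in the same cells, so they too were lower in culture, and their part in the Leydig-like results was not tested. Macrophage markers summed to 238 CPM in Leydig-like cells at 14 dpp and to at most 6.45 CPM in the other libraries, whose part was not tested either. Endothelial-like cells also had less Igf1r in culture in the early pair, 17.8 (9.2 to 31.1) against 67.9 (41.5 to 105) CPM, lower by 3.82-fold (1.78 to 8.56) from 12 and 20 UMIs, while the late pair, 33.1 (20.7 to 50.1) against 54.1 (34.3 to 81.1) CPM, was within counting error.

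Sertoli-like cells, which nurse germ cells inside the tubule, had Igf1r on the other side, at 44 (39.3 to 49.1) against 37.5 (34.4 to 40.7) CPM in the early pair and 64.4 (58.4 to 70.8) against 33.6 (30.5 to 36.9) in the late pair, higher in culture by 1.17-fold (1.02 to 1.35) and 1.92-fold (1.67 to 2.2). Stromal- or myoid-like cells had 34.2 against 29.3 and 58.4 against 36.4 CPM, of which the first ratio, 1.17-fold (0.994 to 1.37), was within counting error and the second was 1.61-fold (1.34 to 1.93). In order of level, Leydig-like cells came first at 9 dpp, above endothelial-like cells (67.9 CPM), and first at 14 dpp, where the interval meets that of pericyte-like cells (84.4 (45 to 144) CPM). In both cultures Sertoli-like cells came first, and their interval met that of Leydig-like cells in the 2-day library and those of both stromal- or myoid-like and Leydig-like cells in the 7-day library.

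Among germ-like cells of the 7-day, 9 dpp and 14 dpp libraries Igf1r was lower at each later stage, with stages set by UMIs of their own markers. At 14 dpp it was 54.8 (48.8 to 61.3) CPM in undifferentiated spermatogonia, 31.8 (29.1 to 34.6) in differentiating spermatogonia, 12.2 (9.84 to 14.9) in early meiotic prophase and 1.81 (0.589 to 4.23) in pachytene spermatocytes. The 7-day library gave 50.8 (42.2 to 60.6), 23.7 (20.6 to 27.1), 4.91 (3.42 to 6.82) and 1.82 (0.221 to 6.58) CPM, and the 9 dpp library 49.5 (45 to 54.3), 24.7 (22.5 to 27.1) and 10.3 (6.28 to 15.9) CPM over the first 3 stages. In these libraries the intervals of neighbouring stages were apart, except those of early prophase and pachytene in the 7-day library. The 2-day library had only 69 undifferentiated spermatogonia with 23.4 (11.2 to 43.1) CPM, which overlaps the 31.5 (27.9 to 35.4) of differentiating spermatogonia. Igf1r in early prophase was 2.48-fold (1.67 to 3.78) lower in the 7-day than in the 14 dpp library, and undifferentiated spermatogonia of that pair had a ratio of 0.927 (0.745 to 1.15).

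Igf2r, which clears IGF2 and carries lysosomal enzymes (ENSMUSG00000023830, chromosome 17, 12682406 to 12769664, minus strand), was low in whole libraries. They had 23 (21.4 to 24.8), 16.9 (15.6 to 18.2), 16.2 (15.2 to 17.3) and 15.2 (14.2 to 16.2) CPM in the 2-day, 7-day, 9 dpp and 14 dpp libraries, so the 2-day library was highest by a small margin. Pericyte-like cells, contractile cells around small vessels, came first of the types in each library, with 58.1 (23.4 to 120), 42.8 (22.8 to 73.2), 84.9 (52.6 to 130) and 58.5 (26.7 to 111) CPM from 7 to 21 UMIs. Their interval stood clear of the type next in level at 14 dpp alone. Even there it overlapped that of endothelial-like cells, 14.1 (5.18 to 30.7) CPM. Pericyte-like cells of the 2-day library also held 4758 CPM of erythroid markers, more than the 4351 CPM of their 8 pericyte markers, while the other libraries had 6.59 to 26 CPM of erythroid markers. In stromal- or myoid-like, Sertoli-like, Leydig-like and germ-like cells Igf2r was within 2-fold in both pairs. The widest of these differences was in Sertoli-like cells of the early pair, 37.9 against 23.8 CPM, or 1.59-fold (1.35 to 1.87) higher in culture. Between the cultures, Sertoli-like cells of the 7-day library had 16.7 CPM against 37.9 in the 2-day library, past 2-fold lower at 2.26-fold (1.81 to 2.85).

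**Figure D2:**
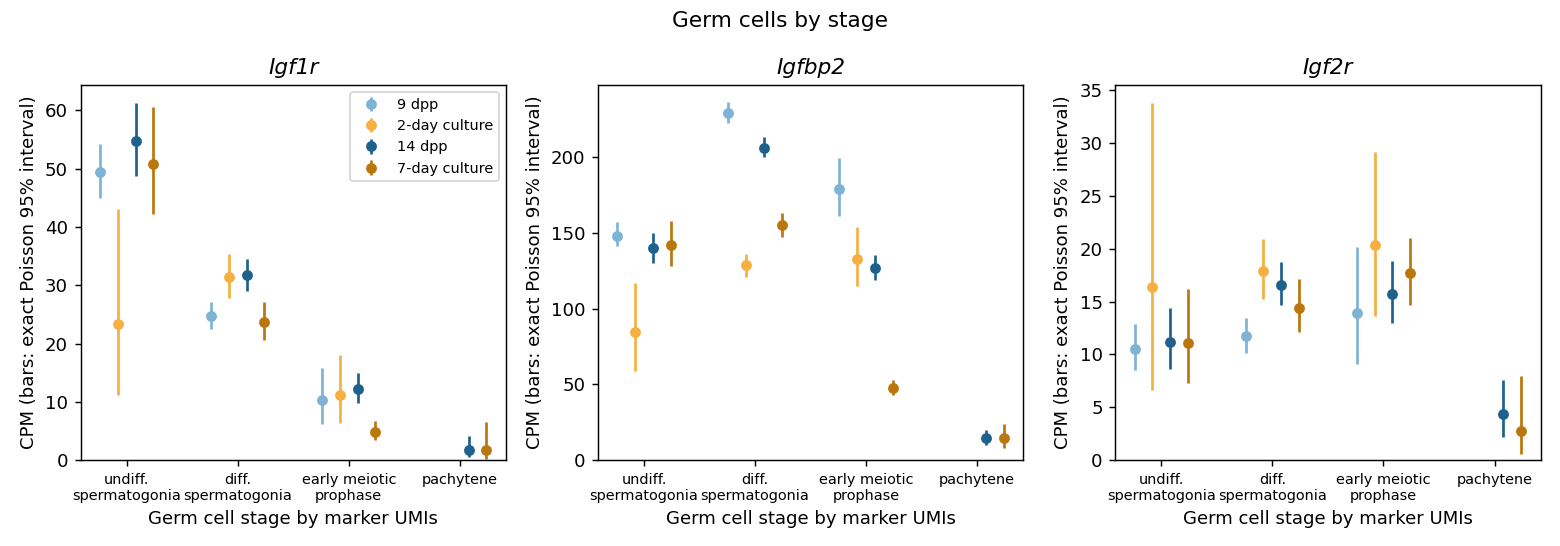
CPM of Igf1r, Igfbp2 and Igf2r (panels, vertical axes from 0) in germ-like cells by stage (horizontal axis) and library (colours), with exact Poisson 95% intervals as bars; stages with fewer than 10 cells are not drawn. Igf1r steps down from undifferentiated spermatogonia (54.8 CPM at 14 dpp) to pachytene spermatocytes (1.81 CPM), and Igfbp2 in early prophase of the 7-day library (47.8 CPM) lies below that of the 14 dpp library (127 CPM).

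Igfbp2, a binding protein with a preference for IGF2 (ENSMUSG00000039323, chromosome 1, 72824503 to 72852474, plus strand), was counted mainly in germ-like cells, which held 78.1% to 89.6% of its UMIs. Germ-like cells had 126 (119 to 132) against 200 (195 to 205) CPM in the early pair and 109 (104 to 113) against 160 (156 to 165) in the late pair. Culture was lower by 1.59-fold (1.5 to 1.68) and 1.48-fold (1.41 to 1.55), short of 2-fold. By stage the widest gap was in early prophase of the late pair, 47.8 (42.9 to 53.2) against 127 (119 to 135) CPM, or 2.66-fold (2.35 to 3.02). Undifferentiated spermatogonia of the same pair had 142 and 140 CPM and pachytene spermatocytes 14.6 and 14.5 CPM, differences within counting error.

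Leydig-like cells had the highest Igfbp2 level of any type in each library, clear of the interval of germ-like cells. It was 197 (163 to 235) against 469 (431 to 509) CPM in the early pair and 201 (168 to 239) against 572 (535 to 610) in the late pair, lower in culture by 2.38-fold (1.96 to 2.92) and 2.84-fold (2.36 to 3.45). The share of Leydig-like cells with an Igfbp2 UMI, at 2000 UMIs per cell, was 24% against 51.9% and 22% against 64.9%. Without thinning it was 62% against 92.8% and 63.3% against 95.5%. Igfbp2 thus had a lower level, and fewer Leydig-like cells with a UMI, in both cultures.

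Stromal- or myoid-like cells had 13.1 against 35.4 CPM and 11.2 against 29.8 CPM of Igfbp2, lower in culture by 2.7-fold (2.21 to 3.32) and 2.66-fold (2.01 to 3.56). Each of these levels was below that of germ-like cells in the same library, so nothing was left after the germ-like level was subtracted. With 10 added to CPM the log2 ratios, -1.37 and -1.34, came to -0.97 and -0.91. In Sertoli-like cells Igfbp2 was 5.15 (3.63 to 7.1) against 9.65 (8.15 to 11.3) and 3.32 (2.08 to 5.02) against 13.9 (11.9 to 16.1) CPM, also below the germ-like level.

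Igfbp3, the main carrier of IGFs in blood (ENSMUSG00000020427, chromosome 11, 7206086 to 7213923, minus strand), had the widest whole-library ratio of the 10 in the late pair and came next to Igfbp5 in the early pair. Over whole libraries it was 191 (186 to 196) against 20 (18.8 to 21.1) CPM in the early pair and 220 (215 to 225) against 9.55 (8.76 to 10.4) in the late pair, or 9.57-fold (8.98 to 10.2) and 23-fold (21.1 to 25.2) higher in culture. Most of this lay in a few endothelial-like cells, which line vessels. In the 2-day library 58 of them held 73.7% of all Igfbp3 UMIs, and in the 7-day library 24 held 78.6%. At 9 and 14 dpp they held 5.4% and 8.75%.

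Endothelial-like cells had 6693 (6499 to 6891) CPM of Igfbp3 in the 2-day against 211 (161 to 270) in the 9 dpp library, and 9646 (9411 to 9885) in the 7-day against 110 (81.2 to 147) in the 14 dpp library. The ratios were 31.8-fold (24.8 to 41.5) and 87.3-fold (65.6 to 119), from 4512, 62, 6418 and 47 UMIs. At 14 dpp 25 of the 47 UMIs came from 1 cell, and without the cell richest in Igfbp3 in each library the levels were 6498 against 181 and 9215 against 56.9 CPM. Scaled to 10000 UMIs per cell, single cells of the 2-day library had a median of 60.4 Igfbp3 UMIs (lowest 0, highest 184) and those of the 7-day library 91.5 (10.6 to 214). The 9 dpp library had a median of 1.29 (0 to 9.96) and the 14 dpp library 0 (0 to 6.42). All 24 cells of the 7-day library lay above every cell of both uncultured libraries. At 2000 UMIs per cell an Igfbp3 UMI was seen in 46 of 46 and 20 of 20 cells of the cultures, and in 26.3% and 16% of those of 9 and 14 dpp, against at most 1.6% of germ-like cells. The 10 endothelial markers summed to 5394 against 5043 CPM and 6121 against 5974 CPM in these cells, and the 16 Sertoli markers to 251 against 526 and 97.7 against 1357 CPM, whose part was not tested.

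**Figure D3:**
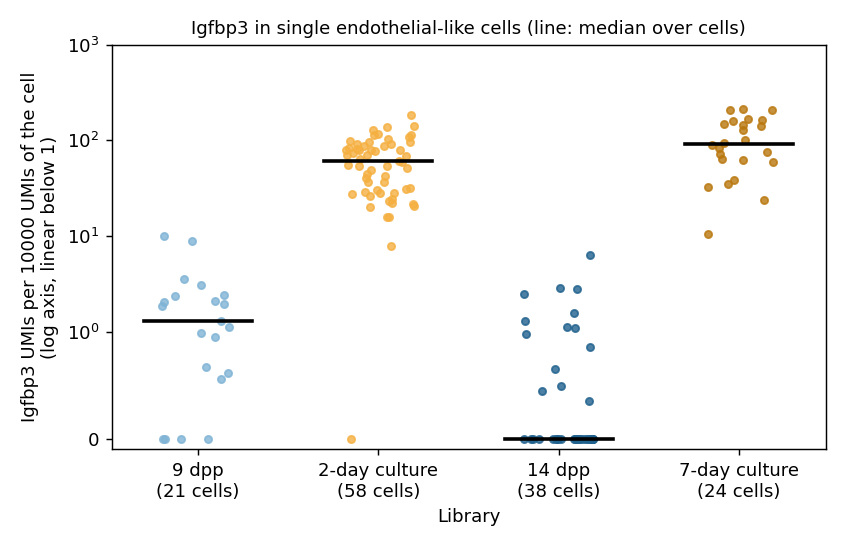
Igfbp3 UMIs per 10000 UMIs of the cell (log axis, linear below 1) in single endothelial-like cells of each library, with the median over cells as a line. The cultured cells have medians of 60.4 and 91.5, and the cells of 9 and 14 dpp have medians of 1.29 and 0.

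Igfbp4 and Igfbp7 went the other way in endothelial-like cells. Igfbp7 was 6879 (6682 to 7079) against 11556 (11171 to 11951) CPM in the early pair and 4548 (4387 to 4713) against 14633 (14271 to 15001) in the late pair, lower in culture by 1.68-fold (1.61 to 1.76) and 3.22-fold (3.08 to 3.36). Every endothelial-like cell of each library had an Igfbp7 UMI. Igfbp4 was 175 against 465 and 94.7 against 785 CPM, lower in culture by 2.66-fold (2.06 to 3.43) and 8.29-fold (6.32 to 11). Igfbp5 was 156 against 23.8 CPM in the early pair, and had 12 against 0 UMIs in the late pair; the stromal marker level given above for these cells is higher in the same libraries. Cultured endothelial-like cells thus had more Igfbp3 and less Igfbp4 and Igfbp7 per UMI.

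Igfbp3 was also higher in culture in Sertoli-like cells, at 167 (157 to 176) against 35.5 (32.5 to 38.6) CPM in the early pair and 233 (221 to 245) against 10.1 (8.41 to 12) in the late pair, or 4.69-fold (4.24 to 5.21) and 23.1-fold (19.3 to 27.9). At 2000 UMIs per cell an Igfbp3 UMI was seen in 28.4% against 6.9% and 37.6% against 1.9% of Sertoli-like cells, beside 1.6% against 1.48% and 1.27% against 0.715% of germ-like cells. Without thinning the Sertoli-like shares were 47.1% against 35.2% and 77.4% against 9.2%. Endothelial markers in Sertoli-like cells summed to 13.4 against 15 and 10.7 against 8.9 CPM, and their part was not tested. Stromal- or myoid-like cells had 21.1 against 32.9 and 10.3 against 36.6 CPM, lower in culture by 1.56-fold (1.31 to 1.87) and 3.55-fold (2.68 to 4.74). The subclasses went apart: stromal-like cells had 23.2 against 59.1 and 13.4 against 81 CPM, past 2-fold lower in culture at 2.55-fold (2.12 to 3.06) and 6.03-fold (4.52 to 8.13). Myoid-like cells had only 16 against 14 and 5 against 1 UMIs, or 9.67 against 3.2 and 2.53 against 0.372 CPM, too few for a call. At 2000 UMIs per cell an Igfbp3 UMI was seen in 3.2% against 8.89% and 2.17% against 13.6% of stromal-like cells. The direction in stromal-like cells was thus opposite to that in endothelial-like and Sertoli-like cells, a difference between types that was not tested.

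**Figure D4:**
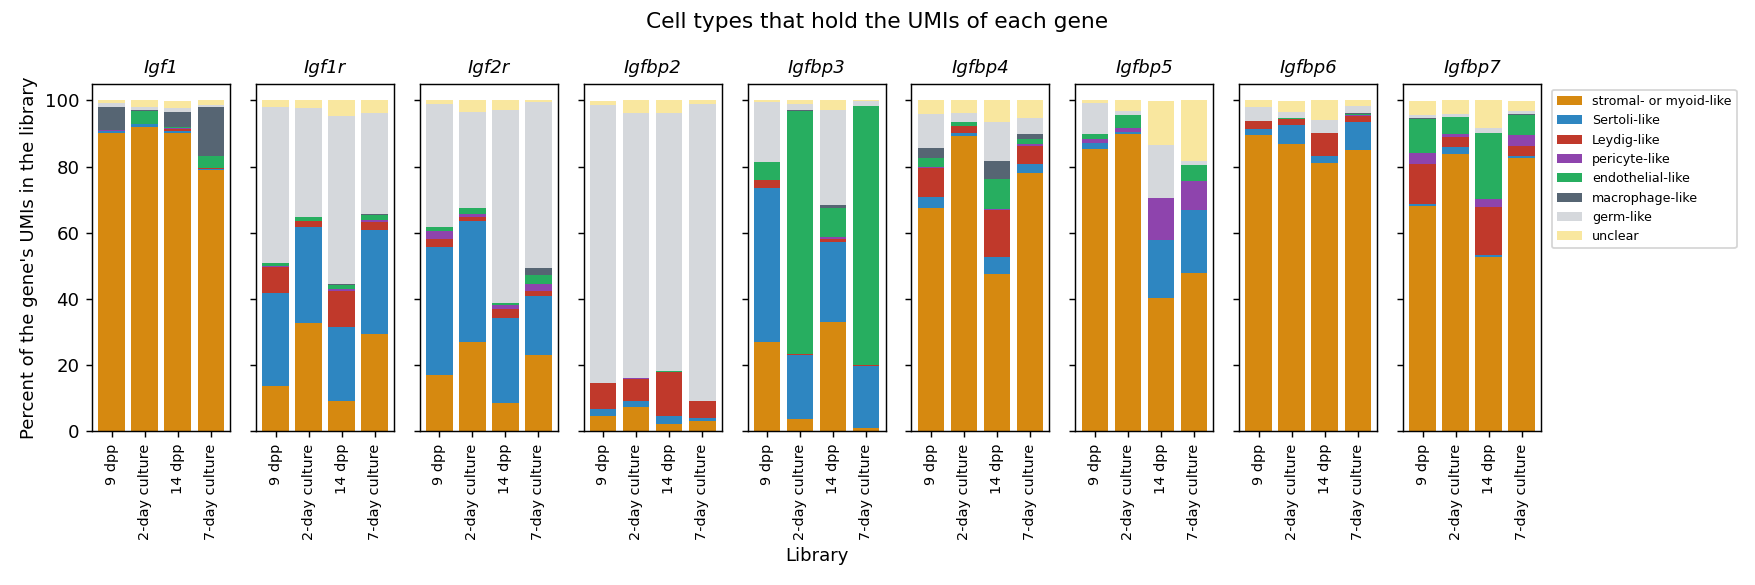
Percent of each gene's UMIs in a library (vertical axis, stacked to 100) that fell in each cell type (colours), for 9 of the genes (panels) and the 4 libraries (bars); Igf2 is left out for its low counts. Endothelial-like cells hold 73.7% and 78.6% of the Igfbp3 UMIs in the cultures but 5.4% and 8.75% at 9 and 14 dpp, while germ-like cells hold most of Igfbp2 in each library.

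Igfbp4, an inhibitor of IGF action that PAPP-A cuts (ENSMUSG00000017493, chromosome 11, 99041244 to 99054392, plus strand), had 47.6% to 89.3% of its UMIs in stromal- or myoid-like cells. Its level there was 778 (761 to 795) against 371 (359 to 384) CPM in the early pair and 455 (439 to 471) against 356 (340 to 373) in the late pair, higher in culture by 2.1-fold (2.01 to 2.18) and 1.28-fold (1.21 to 1.36). The subclasses differed from the sum of both. In stromal-like cells alone the ratio of the early pair was 1.6-fold (1.53 to 1.67), which does not pass 2-fold, and myoid-like cells of the late pair had 85.1 against 178 CPM, lower in culture by 2.1-fold (1.76 to 2.52). Macrophage-like cells had 556 (473 to 649) CPM at 9 dpp, 589 (510 to 677) at 14 dpp and 85.7 (64.7 to 111) in the 7-day library. In the 10 macrophage-like cells of the 2-day library 0 UMIs were counted, where 3 UMIs would be 34.4 CPM. Igfbp4 was thus lower in cultured macrophage-like cells, where the macrophage markers given above were lower as well, and in cultured endothelial-like cells, while Leydig-like cells, at 302 against 375 and 334 against 322 CPM, stayed within 2-fold.

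Igfbp5, a binding protein that attaches to extracellular matrix (ENSMUSG00000026185, chromosome 1, 72857932 to 72874884, minus strand), stood out in the 2-day library. Stromal- or myoid-like cells had 232 (223 to 242) CPM there against 40.5 (36.6 to 44.8) at 9 dpp, and 16.7 (13.8 to 20) in the 7-day library against 9.86 (7.27 to 13.1) at 14 dpp. The ratios were 5.73-fold (5.14 to 6.41) and 1.69-fold (1.2 to 2.42), and the 7-day was 13.9-fold (11.5 to 16.9) below the 2-day library. At 2000 UMIs per cell an Igfbp5 UMI was seen in 26.2% against 5.68% and 2.5% against 1.2% of these cells, and in at most 0.588% of germ-like cells; without thinning the shares were 35.6% against 13.9% and 5.36% against 2.56%. Both subclasses were high in the 2-day library, at 216 CPM in stromal-like and 321 CPM in myoid-like cells, against 39.2 and 42.1 CPM at 9 dpp. In the late pair the ratio was 1.05-fold (0.703 to 1.6) in stromal-like and 3.4-fold (1.69 to 7.29) in myoid-like cells. Pericyte-like cells had 266 (182 to 375) against 24.3 (8.9 to 52.8) CPM in the early pair, but 69.2 (42.8 to 106) against 97.4 (54.5 to 161) in the late pair, where the intervals overlap. In these cells erythroid markers summed to 4758 against 20.2 CPM and pericyte markers to 4351 against 7870 CPM in the early pair, so the class differed between these libraries in its markers too, and the part of this in the Igfbp5 difference was not tested. Uncultured stromal- or myoid-like cells had less at 14 than at 9 dpp, by 4.11-fold (3.04 to 5.67).

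Igfbp6, which binds IGF2 in preference to IGF1 (ENSMUSG00000023046, chromosome 15, 102144362 to 102149511, plus strand), was also counted mainly in stromal- or myoid-like cells. Stromal- or myoid-like cells had 624 (609 to 640) against 943 (924 to 963) CPM in the early pair and 660 (641 to 679) against 1390 (1357 to 1423) in the late pair, lower in culture by 1.51-fold (1.46 to 1.56) and 2.11-fold (2.03 to 2.19). With equal weight per cell the log2 ratio of the late pair, -1.07, came to -0.99, just short of 2-fold. By subclass, stromal-like cells had 629 against 1254 and 585 against 2040 CPM, while myoid-like cells had 600 against 590 and 847 against 861 CPM, within counting error in both pairs. The line between the subclasses was less sure in culture. In the 2-day library 308 of 1902 stromal-like and 292 of 528 myoid-like cells lay within 2-fold of it, against 31 of 773 and 110 of 726 at 9 dpp. The late pair had 94 of 975 stromal-like and 154 of 518 myoid-like cells there in culture, against 10 of 456 and 97 of 638 at 14 dpp. Sertoli-like cells ran the other way, at 59.4 (53.9 to 65.3) against 11.7 (10 to 13.6) CPM and 69.8 (63.6 to 76.5) against 14.1 (12.1 to 16.3) CPM, or 5.08-fold (4.25 to 6.09) and 4.94-fold (4.15 to 5.9) higher in culture. Stromal markers in Sertoli-like cells moved the same way, at 145 against 35.6 and 44.2 against 22.3 CPM, and myoid markers were 107 against 46.1 and 54.7 against 65 CPM, whose part was not tested. Germ-like cells had 10.2 (8.44 to 12.1) against 13.7 (12.4 to 15.1) and 5.28 (4.33 to 6.37) against 9.42 (8.41 to 10.5) CPM, so the Sertoli-like level was above the germ-like level in both cultures and at 14 dpp, and not at 9 dpp. At 2000 UMIs per cell an Igfbp6 UMI was seen in 10.7% against 1.84% and 10% against 3.68% of Sertoli-like cells, beside 1.89% against 2.24% and 0.533% against 1.76% of germ-like cells. Leydig-like cells of the late pair had 157 against 353 CPM, lower in culture by 2.25-fold (1.82 to 2.82), while the early pair had 221 against 198 CPM, a ratio of 1.12-fold (0.899 to 1.38) within counting error. Stromal markers in Leydig-like cells summed to 1188 against 2017 CPM in the early and 1395 against 1901 CPM in the late pair. They were lower in culture in both, and their part was not tested.

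Igfbp7, a secreted protein of vessels and stroma with low affinity for IGFs (ENSMUSG00000036256, chromosome 5, 77349240 to 77408041, minus strand), had the most UMIs of the 10 in every library. Polr2b, on the opposite strand, covers 8.5% of the last 1000 exon bases of Igfbp7, and whether reads were counted by strand is not given in the sources used here. Stromal- or myoid-like cells had 7210 (7159 to 7262) against 2399 (2367 to 2430) CPM in the early pair and 5918 (5861 to 5976) against 3401 (3349 to 3453) in the late pair, or 3.01-fold (2.96 to 3.05) and 1.74-fold (1.71 to 1.77) higher in culture. The mix of this class differed within the pairs, with 1902 of 2430 against 773 of 1499 cells stromal-like in the early and 975 of 1493 against 456 of 1094 in the late pair, and myoid markers at 3282 against 8598 and 5065 against 11722 CPM. Igfbp7 was higher in culture in each subclass, by 3.24-fold (3.17 to 3.31) and 1.78-fold (1.74 to 1.82) in stromal-like and 2.75-fold (2.68 to 2.82) and 1.37-fold (1.33 to 1.41) in myoid-like cells. Leydig-like cells had 4357 against 3313 and 2301 against 2813 CPM, higher in culture in the early and lower in the late pair, both within 2-fold. Pericyte-like cells had 6436 against 4404 and 5357 against 5509 CPM. Igfbp7 in Sertoli-like cells was 272 (260 to 284) against 12.2 (10.5 to 14.1) CPM and 54.1 (48.7 to 60) against 15.1 (13 to 17.4) CPM, or 22.2-fold (19.1 to 26) and 3.59-fold (3.01 to 4.3) higher in culture. Germ-like cells had 66 against 11.9 and 23.5 against 13.8 CPM, higher in culture too, and past 2-fold in the early pair. The 8 stromal markers summed to 145 against 35.6 and 44.2 against 22.3 CPM in Sertoli-like cells, and to 102 against 40.7 and 34.6 against 30.6 CPM in germ-like cells, with their own part in the Igfbp7 difference not tested.

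Counted within types, stromal- or myoid-like cells had 9 members with enough UMIs. In the early pair 3 were past 2-fold higher (Igfbp4, Igfbp5 and Igfbp7) and 1 was lower (Igfbp2), against 5.83% and 7.13% of all genes. In the late pair 0 were higher and 3 were lower (Igfbp2, Igfbp3 and Igfbp6), against 5.06% and 4.85%. Their median log2 ratios were 0.15 and 0.35, beside -0.17 and -0.02 over all genes. The calls thus went in both directions in this class.

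Sertoli-like cells also had 9 members tested. In the early pair 5 were higher (Igf1, Igfbp3, Igfbp5, Igfbp6 and Igfbp7) and 0 were lower, against 6.54% and 6.22% of all genes. In the late pair 4 were higher (Igfbp3, Igfbp5, Igfbp6 and Igfbp7) and 1, Igfbp2, was lower, against 9.82% and 8.42%. The members' medians were 1.04 and 0.92, beside -0.11 and -0.01 over all genes. Igf1 and Igfbp5 rest on 20 to 31 and 7 to 46 UMIs per library. Both reached the minimum of UMIs through the cultures and not through the in vivo counts, so their calls are a description of these low counts. The log2 ratio of Igf1 in the early pair, 1.04, was 0.30 with doublet calls kept, and that of Igfbp5, 1.42, was 0.00 after the germ-like level was subtracted. With 10 added to CPM Igfbp5 came to 0.30 in the early and 0.54 in the late pair, and Igfbp2 in the late pair from -1.79 to -0.84. Germ markers summed to 2001 CPM in Sertoli-like cells at 14 dpp and to 422 to 531 CPM in the other libraries. Stromal markers in Sertoli-like cells were higher in culture in both pairs, at 145 against 35.6 and 44.2 against 22.3 CPM, while Igf1, Igfbp5, Igfbp6 and Igfbp7 had higher levels in stromal- or myoid-like than in Sertoli-like cells of each library. The part of either list in these counts was not tested.

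Leydig-like cells had 7 members tested, of which 0 were higher and 2 were lower in the early pair (Igf1r and Igfbp2), against 5.84% and 11.7% of all genes. In the late pair 0 were higher and 3 were lower (Igf1r, Igfbp2 and Igfbp6), against 6.49% and 8.68%. The members' medians were -0.31 and -0.29, beside -0.08 and 0.03. Members past 2-fold were thus on the lower side in cultured Leydig-like cells and, apart from Igfbp2, on the higher side in cultured Sertoli-like cells. The Sertoli-like side includes Igf1 and Igfbp5, whose calls rest on the low counts given above.

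**Figure D5:**
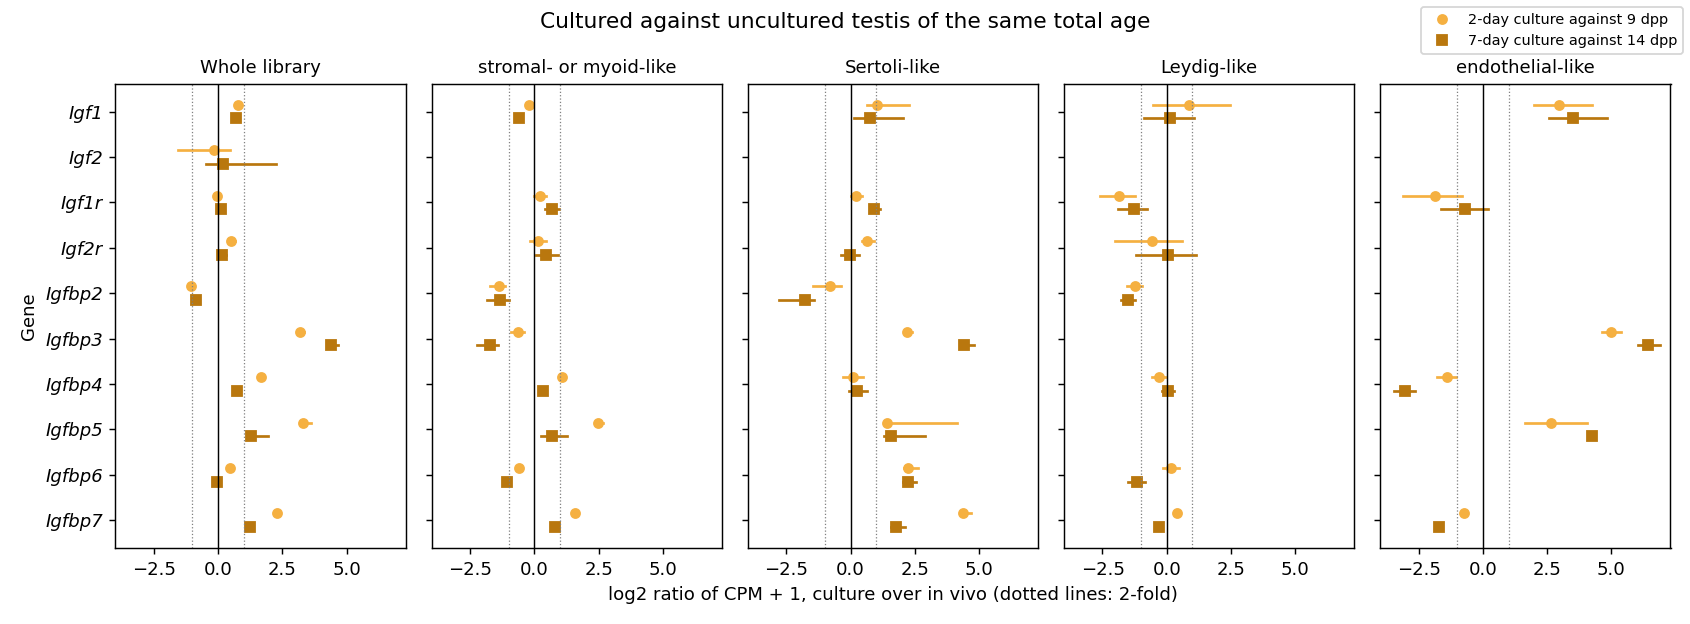
Log2 ratio of CPM plus 1, culture over in vivo (horizontal axis), of each gene (vertical axis) over the whole library and in 4 cell types (panels), for both pairs (circles for the 2-day and squares for the 7-day culture). Lines are exact 95% intervals of the ratio of CPM without the added 1, and genes with fewer than 50 UMIs over the 4 libraries in a panel are not drawn. Igfbp3 lies to the right in endothelial-like (4.98 and 6.43) and Sertoli-like cells (2.20 and 4.40) and to the left in stromal- or myoid-like cells (-0.62 and -1.73).

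Genes that act around the binding proteins were counted from 4 lists. Of 9 genes that release or carry IGFs, 6 had enough UMIs in stromal- or myoid-like cells, and 1 was higher and 2 were lower in each pair, where 5.83% and 7.13% of all genes were higher and lower in the early and 5.06% and 4.85% in the late pair, with median log2 ratios of -0.23 and 0.01. Pappa, whose product cuts IGFBP4, was the 1 higher, at 6.93 against 1.07 and 10.7 against 1.64 CPM, with log2 ratios of 1.94 and 2.15 from 73, 10, 74 and 8 UMIs. Stc1 and Stc2, which encode the stanniocalcins that block PAPP-A, were the 2 lower. Stc1 had 7.97 against 62.4 and 4.07 against 28.1 CPM, with log2 ratios of -2.82 and -2.52. Stc2 had 4.94 against 52.8 and 10.3 against 41.5 CPM, with log2 ratios of -3.18 and -1.91. Pappa reached the minimum of UMIs through the cultures alone, so its call is a description of these low counts. In Sertoli-like cells 4 genes of this list had enough UMIs, 1 was higher in the early and 3 in the late pair, against 6.54% and 9.82% of all genes, and Htra1, a secreted protease that cuts binding proteins, had 116 against 17.2 and 85.5 against 1.41 CPM. Over whole libraries Htra1 had 103 against 38.1 and 77.7 against 36 CPM, with log2 ratios of 1.41 and 1.09. Bmp1, a secreted metalloprotease, had 73.1 against 31 and 29.2 against 11.4 CPM there, with log2 ratios of 1.21 and 1.28. Of this list 2 were higher and 1 was lower over whole libraries of the early pair, and 2 were higher and 0 were lower in the late pair, against 4.19%, 3.41%, 3.6% and 2.67% of all genes.

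Of 23 genes of IGF and insulin receptor signalling, 21 had enough UMIs and 0 were past 2-fold in any of the 4 whole-library comparisons, in which 1.97% to 4.52% of all genes were called in a given direction, so that 0 of 21 is near the background. The list had median log2 ratios of 0.06 in the early and 0.10 in the late pair. In Sertoli-like cells 1 of 21 was higher in the early pair, and 3 were higher and 1 was lower in the late pair, against 6.54%, 9.82% and 8.42% of all genes. Irs1, an adaptor of the receptor, was higher in both, at 3.06 against 0.991 and 3.17 against 0.39 CPM, from 22, 15, 21 and 5 UMIs. Its in vivo counts alone fall short of the minimum of UMIs, so its call is a description of these low counts. Of 11 imprinted growth genes and genes of IGF2 mRNA-binding proteins, over whole libraries, 1 was higher in the early and 5 in the late pair, and 6 were lower at 14 than at 9 dpp, against 4.19%, 3.6% and 1.97% of all genes. In stromal- or myoid-like cells of the early pair 2 were higher and 6 were lower, and in the late pair 2 were higher and 0 were lower, beside the shares of all genes given above for this class. Igf2bp2, whose product binds Igf2 mRNA, was past 2-fold higher there in both pairs, at 45.2 against 21.8 and 39.9 against 17.5 CPM, and over whole libraries, at 18.8 against 6.98 and 10.2 against 4.47 CPM. Of 8 other genes whose products share the IGF binding protein domain, 7 were tested over whole libraries, and 2 were higher in the early and 3 in the late pair, against 4.19% and 3.6% of all genes. Esm1, an endothelial proteoglycan gene, was higher in both, at 3.99 against 0.764 and 4.47 against 0.374 CPM. In stromal- or myoid-like cells 5 were tested, of which 1 was higher and 2 were lower in the early pair and 1 was higher and 1 was lower in the late pair, beside 5.83%, 7.13%, 5.06% and 4.85% of all genes, with median log2 ratios of -0.77 and -0.62. Wisp2, which encodes a secreted matrix-associated protein, had, over whole libraries, 27.5 against 0.174 and 9.46 against 0.249 CPM, and 53.1 against 0.321 and 22.2 against 0.411 CPM in stromal- or myoid-like cells, from 559, 3, 153 and 2 UMIs, and it too reached the minimum through the cultures alone. Ctgf, a matrix protein of this group, was lower in culture in stromal- or myoid-like cells, at 72.8 against 203 and 124 against 259 CPM, but higher in Sertoli-like cells, at 29.5 against 7.27 and 10.6 against 2.34 CPM.

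The genes most like each member were those with the highest Pearson correlation of log2 of CPM plus 1 over 16 points, which are 4 cell types (stromal- or myoid-like, Sertoli-like, Leydig-like and germ-like) in 4 libraries, among 12379 genes. The points share libraries and depth, and the values are a description. Endothelial-like cells, which held most Igfbp3 UMIs of the cultures, are not among the points, so likeness to Igfbp3 leaves out its main type. Those genes were Trim63, Rbbp7 and Adamts5 for Igf1 (r of 0.982 to 0.984), Ddr2, Rhoj and Hoxd10 for Igfbp4 (r of 0.981 to 0.990), Gas1, Pdlim2 and Il6st for Igfbp6 (r of 0.979 to 0.980) and Col3a1, Fcgrt and Vcam1 for Igfbp7 (r of 0.978 to 0.980). Likeness was lower for other members, with Atp5a1, Rogdi and Apln for Igfbp2 (r of 0.943 to 0.947), Olfml3, Meox1 and Tgfbr2 for Igfbp5 (r of 0.901 to 0.910), Inpp5e, Zyx and Agrn for Igfbp3 (r of 0.869 to 0.878) and Fads1, Pitpnm2 and Hspa1b for Igf1r (r of 0.860 to 0.881), and lowest with Slpi, Lgr4 and Lpl for Igf2r (r of 0.711 to 0.754). Igf2 is left out here for its low counts. By Spearman correlation 4 of the 30 nearest genes, over all 10 members, were again among the 3 nearest, so the choice of nearest genes depends on the measure.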

How the data were processed

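The deposited files hold raw UMI counts per gene and barcode, which the authors made with Cell Ranger 3.0.2 against mm10, per the submitters' processing notes. How reads that fit several genes were counted is not given in the sources used here. Barcodes needed at least 500 genes and no more than 20% mitochondrial UMIs, and 93 to 253 Scrublet doublet calls per library (scanpy 1.11.5, expected rate 6%) were left out. A cell took the type whose marker share, relative to the 100 cells highest for that list, reached 0.05 with at least 3 marker UMIs and 2 times the score of the next type. Germ-like cells took the stage of highest relative score with at least 3 marker UMIs, without a required lead. UMIs were summed per type and library. Levels have exact Poisson, shares Clopper-Pearson and ratios exact conditional binomial intervals at 95%, the ratio script being tested on simulated data. PCR noise and free RNA are outside these intervals. All 10 members are described. The 3 most correlated genes with at least 500 UMIs are named for each, and pathway genes where past 2-fold the same way in both pairs. The members, lists and rules were chosen with earlier results of these data known. Of 31053 gene identifiers 31011 matched GENCODE M21. TMM factors came from edgeR 4.0.16.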

Additional observations from a re-analysis of the deposited data

How the results depend on the processing

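Member ratios over whole libraries (4 comparisons) and of both pairs in stromal- or myoid-like, Sertoli-like, Leydig-like and endothelial-like cells were recomputed with stricter and with no cell filters, doublet calls kept, 0.1 or 10 added to CPM, TMM factors, equal weight per cell, other leads of the type rule, the germ-like level subtracted, stromal-like cells alone and, chosen after seeing the data, cells with at least 2000 UMIs. Of 455 alternative values of the 44 such ratios past 2-fold, 431 stayed past it in the same direction, 20 kept the direction but came short of 2-fold, 4 became 0 after the germ-like level was subtracted, and 0 changed sign. Ratios in other types, by germ stage, and between ages or cultures within a type were not recomputed, apart from the subclass and top-cell values in the report. The count of members past 2-fold between 14 and 9 dpp, 1 over whole libraries, was 2 with stricter cell filters, 3 with 0.1 added, 0 with 10 added and 2 in cells with at least 2000 UMIs. The other counts over whole libraries and in stromal- or myoid-like cells stayed within 1.5 times. In Sertoli-like cells 10 added gave 3 and 3 in place of 5 and 5, and in Leydig-like cells of the early pair no minimum of UMIs gave 5 in place of 2. Igfbp2 over whole libraries of the early pair (-1.07) was -0.83 with cells weighted equally. After the germ-like level was subtracted, the log2 ratios in Sertoli-like cells were 2.41 and 5.14 for Igfbp3, 5.65 and 3.52 for Igfbp6 and 7.27 and 3.83 for Igfbp7, in place of 2.20 and 4.40, 2.25 and 2.23, and 4.37 and 1.78; for Igfbp6 and Igfbp7 the in vivo levels of both types were close, as given above, so these sizes depend on the 1 added to CPM. The cause of the other moves was not tested. No paired analysis was possible because each group has 1 library. Pericyte-like, endothelial-like and macrophage-like values rest on 10 to 58 cells per library.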

Other observations

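Igfbp1, a binding protein gene outside the set, had 1 UMI in the 2-day library, 13 in the 7-day library and 0 in both uncultured libraries, and 11 of the 13 lay in endothelial-like cells. It was singled out after its values were seen.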
